A study of Tachysurus vachellii with 6 samples.

Results

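miR-2188 was measured in small RNA libraries from liver-derived extracellular vesicles, the membrane particles that cells release, of Pelteobagrus vachellii (Tachysurus vachellii), the darkbarbel catfish. The rows were chosen by name: a row belonged if its miRNA name, after the species prefix, was mir-2188 with any arm or variant suffix. This gave 2 entries, 1 for each arm, among 841 entries built from 1088 deposited rows. No value decided which rows entered, but the family was picked with earlier results of the same libraries known. Its hypoxia and normoxia values are therefore given as a description.

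All fish were bought, acclimated and fasted alike, and carried no genetic change that the labels name. Hypoxia meant water sealed and bubbled with nitrogen to a dissolved oxygen of 1.0 mg/L, and normoxia meant water at 6.8 mg/L, both at 4 h, with 3 libraries each. The labels do not say whether a library came from 1 fish or a pool, so the spread between libraries may be technical. The sample titles name liver and not vesicles. miR-122, the main miRNA of hepatocytes, was present in every library. Its level is given in CPM, that is, counts scaled to a common library total. Its 6 entries summed to 215550 to 255663 CPM in hypoxia and 251833 to 262825 CPM in normoxia, so the groups overlapped.

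A miRNA is cut from a hairpin transcript as a short duplex of a 5p and a 3p strand, and usually 1 strand is loaded onto an Argonaute protein while the other is degraded. The loaded strand finds its targets mainly through the seed, bases 2 to 8 from the 5′ end. In zebrafish, miR-2188 is known to act in the growth of the vessels between the somites, where it represses the neuropilin gene nrp2a. Its role in the liver of catfish is not known from the sources used here.

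The deposited sequences of both arms are given with the seed in capitals, because the seed and the ends of the strands bear on the comparisons that follow. A further sequence was deposited as a predicted miRNA and is shown because it begins with all 21 bases of the 5p arm. Sequences are written with T as in the deposited table.
dre-miR-2188-5p: aAGGTCCAacctcacatgtcc
dre-miR-2188-3p_L+1_1ss14AG: gCTGTGTGaggttggacctatc
PC-5p-1446_18052: aAGGTCCAacctcacatgtccgt

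The 5p entry carries the plain zebrafish name and has 21 bases with 52.4% G or C. The 3p entry has 22 bases with 54.5% G or C, and its suffix marks a difference from the named miRNA that the sources used here do not define. Each sequence was listed 1 time in the table, so no listings were summed for either arm. The seed of the 5p arm was shared with 1 other entry of the table, the predicted one above. The seed of the 3p arm was also shared with 1 other entry, PC-3p-96516_45, a predicted sequence that does not contain the whole 3p arm.

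The 2 deposited strands are complementary to each other over 15 unbroken bases, set in capitals here to show the stem that joins them.
dre-miR-2188-5p: aAGGTCCAACCTCACAtgtcc
dre-miR-2188-3p_L+1_1ss14AG: gctgTGTGAGGTTGGACCTatc
These are bases 2 to 16 of the 5p strand and bases 5 to 19 of the 3p strand. RNAduplex, which predicts the pairing of 2 strands, placed 16 base pairs between them at -30.8 kcal/mol. The pairs joined bases 2 to 17 of the 5p strand with bases 4 to 19 of the 3p strand, and the ends beyond them were unpaired. Counted by length, unpaired bases included, the 3p strand reached 2 bases past the other strand at its 3′ end. The 5p strand reached 1 base past at its own. The stem was computed from the deposited strands alone, since the hairpin's genomic sequence was not used here.

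The 5p arm was the abundant one in all 6 libraries. It held 3588, 16469 and 12274 counts in hypoxia replicates 1, 2 and 3, and 13811, 7652 and 7577 counts in normoxia replicates 1, 2 and 3. The 3p arm held 149, 731 and 540 counts in hypoxia and 603, 358 and 286 in normoxia. Counted together, the 2 named entries made up 0.133% to 0.238% of all counts in a library. By counts, the 5p arm ranked between place 47 and place 62 among the 841 entries of each library, and the 3p arm between place 169 and place 214. The deposited values are estimated counts, and levels of the arms were not divided by length.

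The 5p arm was higher in the hypoxia vesicles, by 1.38-fold. Its level was 1744, 2276 and 1958 CPM in hypoxia replicates 1, 2 and 3, with library totals scaled by TMM factors. In normoxia it was 1642, 1307 and 1377 CPM. The lowest hypoxia library thus lay above the highest normoxia library, and replicate 1 was nearest to the other group on both sides. The mean of the hypoxia libraries was 1993 ± 268 CPM, and that of the normoxia libraries 1442 ± 177 CPM (SD, n = 3 each). The fitted log2 fold change was 0.47 ± 0.14 (SE).

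The 3p arm, the minor strand, was higher by nearly the same factor, 1.41-fold. It stood at 72.4, 101.0 and 86.1 CPM in hypoxia replicates 1, 2 and 3, and at 71.7, 61.1 and 52.0 CPM in normoxia. The groups did not overlap, but only just. The count of 149 in hypoxia replicate 1 gives a 95% exact Poisson interval of 61.3 to 85.0 CPM, which holds the value of normoxia replicate 1. Such intervals cover counting error only and treat each read as independent. The labels mention no molecular identifiers by which copies made in amplification could be told apart. The hypoxia mean was 86.5 ± 14.3 CPM and the normoxia mean 61.6 ± 9.86 CPM (SD, n = 3 each), a log2 fold change of 0.50 ± 0.19 (SE).

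**Figure D1:**
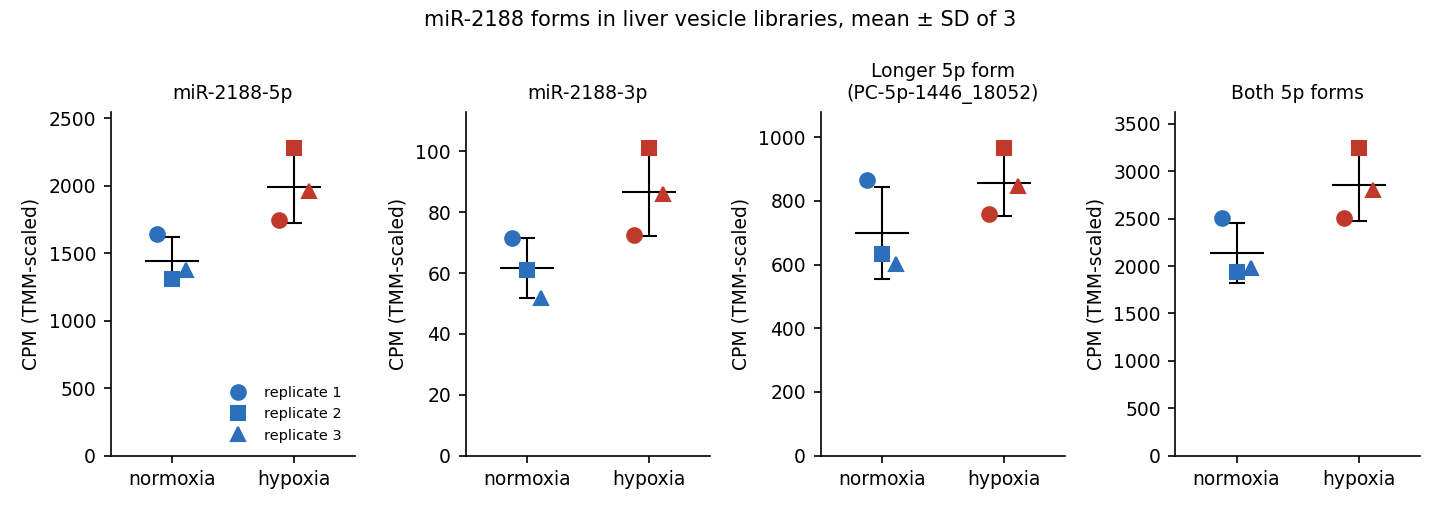
TMM-scaled CPM of the 5p arm, the 3p arm, the longer 5p form and the sum of both 5p forms in each library, with hypoxia in red, normoxia in blue, and the mean and SD of 3 libraries in black. The groups are apart for each arm, closest for the 3p arm at 72.4 against 71.7 CPM, and overlap for the longer form and for the sum of both 5p forms.

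Neither arm was called. In the edgeR quasi-likelihood fit over 519 entries, 14 passed a Benjamini-Hochberg adjusted p of 0.05, 8 higher and 6 lower in hypoxia, which is 2.7% of those tested. With scaling by total counts only, 5 were higher and 0 lower. Of the miR-2188 entries, 0 of 2 were among the calls. Both had an unadjusted edgeR p under 0.05, as did 18.5% of all entries tested. DESeq2 called 8.23% of the entries it tested, the 5p arm among them and the 3p arm not. Complete separation of the groups with hypoxia above was seen in both arms and in 11.8% of all entries. Nothing is read from these counts for the family, which was picked with the contrast known. The arms are 2 products of 1 hairpin and are not independent of each other.

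The shallowest library was hypoxia replicate 1, with 2038301 counts against 5572737 to 8497217 in the other 5. It also had the fewest entries detected, where the other 5 had 643 to 725. Among the hypoxia libraries it had the lowest level of both arms. Without it the log2 fold change was 0.60 ± 0.13 for the 5p arm and 0.65 ± 0.18 for the 3p arm (SE), and neither arm was called. Leaving out normoxia replicate 1, the highest of its group for both arms, gave 0.62 ± 0.16 and 0.67 ± 0.21. With offsets for the GC content and length of each sequence the values were 0.40 ± 0.14 and 0.48 ± 0.18.

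The balance between the arms was nearly the same in all libraries. There were 24.1, 22.5 and 22.7 counts of the 5p arm for each count of the 3p arm in hypoxia replicates 1, 2 and 3, and 22.9, 21.4 and 26.5 in normoxia. The normoxia libraries spanned the whole range of the hypoxia libraries, so the groups overlapped. The 3p arm took 4.15 ± 0.14% of the counts of the 2 named entries in hypoxia and 4.10 ± 0.42% in normoxia (SD, n = 3 each). These ratios and shares leave out the longer 5p sequence with the predicted name. With it added to the 5p counts, the ratio was 33.1 ± 1.31 in hypoxia and 34.9 ± 3.17 in normoxia (SD, n = 3 each), and the groups overlapped. The 95% Wilson intervals of single libraries reached from 3.25% to 4.94%. On the log2 scale the ratio of 5p to 3p counts was 4.53 ± 0.05 in hypoxia and 4.55 ± 0.16 in normoxia, a difference of -0.02. This ratio is taken within a library and does not depend on library size or scaling. Without normoxia replicate 3, which had the highest ratio, the difference was 0.06.

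The ratio of the arms was among the steadiest of the miRNA names compared. In the table, 31 names had both arms given and at least 10 CPM in each. The arms were joined by name alone, also across species prefixes, so a name need not be 1 hairpin of this fish. Names mir-199 and mir-199a, at mean log2 ratios of -10.1 and 10.7, each join an abundant arm with a rare entry of the other arm, and their ratios are not read as arm balance. Over the 6 libraries the log2 ratio of miR-2188 had an SD of 0.106, the smallest of the 31, with miR-30e next at the same rounded value and a median of 0.303. The difference between hypoxia and normoxia was the third smallest, where the median absolute difference was 0.298, and the groups did not overlap for 11 names. The most abundant 5p and 3p entries carry the same species prefix in 20 names, a restriction chosen after seeing the data. miR-2188 is 1 of these 20, so its SD had to be the smallest there too, which adds nothing. The median SD of the 20 was 0.308. Arms with few counts have larger counting error, and the order of these SDs was not adjusted for abundance. Ligation and amplification can favour 1 strand over the other, so the ratio compares libraries better than it compares miRNAs.

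**Figure D2:**
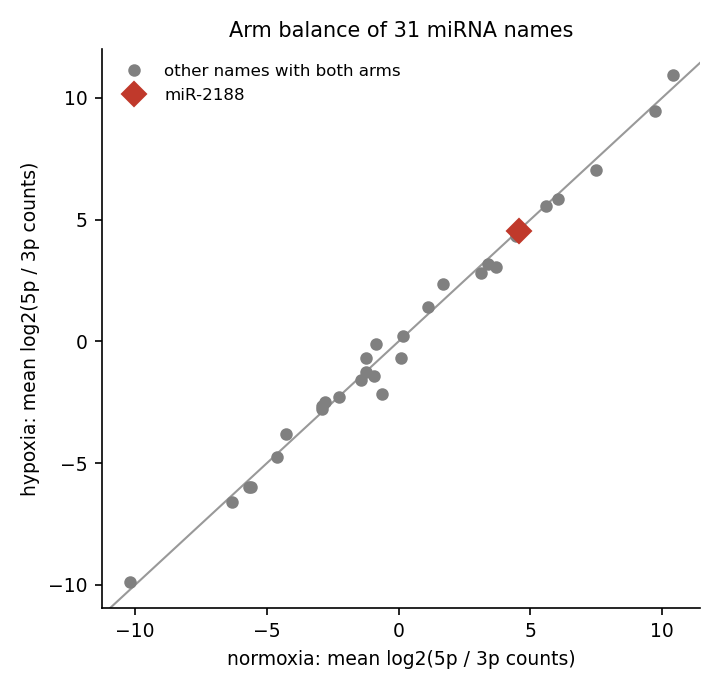
Mean log2 ratio of 5p to 3p counts in hypoxia (vertical) against normoxia (horizontal) for 31 miRNA names with at least 10 CPM in both arms, where each point is a name, not in every case a single hairpin, and the grey line marks equal ratios. miR-2188, the red diamond, lies at 4.55 in normoxia and 4.53 in hypoxia.

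A second, longer form of the 5p arm was deposited under a predicted name. PC-5p-1446_18052 has 23 bases, and its last 2 bases, in capitals here, are the only ones beyond dre-miR-2188-5p.
PC-5p-1446_18052: aaggtccaacctcacatgtccGT
It does not carry the name miR-2188 and so was not among the members. It was the entry with the second most counts among 306 predicted entries. Of those, 13 began with the whole sequence of a named entry. Paired with the deposited 3p strand by RNAduplex, the longer form kept the same 16 base pairs. Counted by length, unpaired bases included, it reached 3 bases past the 3p strand at its 3′ end.

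The longer form did not separate the groups. It stood at 758, 965 and 847 CPM in hypoxia replicates 1, 2 and 3, and at 865, 632 and 601 CPM in normoxia. Normoxia replicate 1 lay above 2 of the 3 hypoxia libraries. The group levels were 857 ± 104 CPM and 699.6 ± 144.0 CPM (SD, n = 3 each), with a log2 fold change of 0.29 ± 0.17 (SE).

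Adding the longer form to the 5p arm removed the gap between the groups. The sum was 2503, 3241 and 2805 CPM in hypoxia replicates 1, 2 and 3, and 2507, 1939 and 1979 CPM in normoxia. Hypoxia replicate 1 then lay just below normoxia replicate 1. The log2 fold change of the sum was 0.43 ± 0.14 (SE), and it was not called. The rule by which reads were divided between the 2 entries is not stated in these sources, so their separate levels are uncertain.

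By unadjusted counts, the longer form took a smaller share of the 5p reads in hypoxia, a difference of -2.41 percentage points between the group means. Its share of both forms was 30.3%, 29.8% and 30.2% in hypoxia replicates 1, 2 and 3, and 34.5%, 32.6% and 30.4% in normoxia. All 3 hypoxia libraries lay together, while the normoxia libraries were spread. Normoxia replicate 3, at 30.4%, differed from the hypoxia libraries by less than counting error, with a 95% Wilson interval of 29.5% to 31.3% against 29.1% to 31.6% in hypoxia replicate 1. The intervals of normoxia replicates 1 and 2 began at 33.9% and 31.8%, above those of all 3 hypoxia libraries. Group values were 30.1 ± 0.28% and 32.5 ± 2.05% (SD, n = 3 each). In the main fit the log2 fold change was 0.47 ± 0.14 for miR-2188-5p and 0.29 ± 0.17 for the longer form (SE). Once the fit allowed for sequence length and GC, these values were nearly equal, at 0.40 ± 0.14 and 0.38 ± 0.15 (SE). The smaller share in hypoxia thus depended on leaving out that adjustment, and its cause was not tested.

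**Figure D3:**
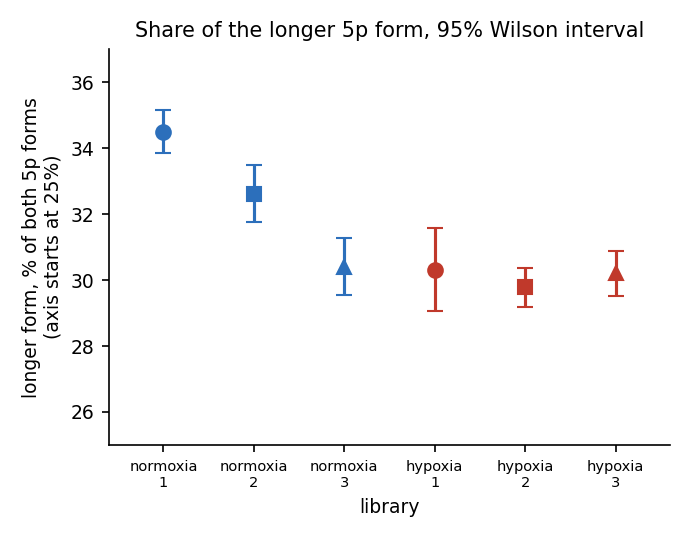
Share of the 23-base form among all counts of both 5p forms in each library, in percent on an axis that starts at 25%, with 95% Wilson intervals that cover counting error only. The hypoxia libraries (red) sit at 29.8% to 30.3% and normoxia replicate 3 at 30.4%, while normoxia replicates 1 and 2 are higher.

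The entry whose level followed miR-2188 most closely was miR-451, the red blood cell miRNA. Among 327 entries with at least 10 CPM, log2 CPM of dre-miR-451 had the highest Pearson r over the 6 libraries with the 5p arm, at 0.97, and with the 3p arm, at 0.96. The arms themselves correlated at 0.95. All these points share the same 6 libraries and the same difference between the groups, so the correlations are descriptions. dre-miR-451 stood at 5453, 6800 and 5781 CPM in hypoxia replicates 1, 2 and 3, and at 4438, 3852 and 3624 CPM in normoxia. As with miR-2188-5p, hypoxia replicate 2 was the highest library, and replicate 1 was the highest in normoxia. For each read of miR-2188-5p there were 2.953 to 3.126 reads of dre-miR-451 in hypoxia and 2.632 to 2.948 in normoxia. The groups thus did not overlap, but only just. The log2 fold change of dre-miR-451 was 0.60 ± 0.13, against 0.47 ± 0.14 for miR-2188-5p (SE).

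The next entries in likeness were the same 4 for both arms. They were the predicted PC-3p-33261_366, dre-miR-181a-2-3p, dre-miR-23a-3p_R-1 and the longer 5p form. Their r was 0.91 to 0.94 with the 5p arm and 0.86 to 0.93 with the 3p arm. PC-3p-33261_366 was a scarce entry, at 15.1 ± 4.26 CPM under hypoxia and 8.81 ± 0.32 CPM under normoxia (SD, n = 3 each). Its normoxia level lay below the CPM required of compared entries, so it entered through its hypoxia level. Its place in the order is therefore not read as likeness beyond the difference between the groups. dre-miR-181a-2-3p, a minor strand of the miR-181 family, had a mean of 647 ± 56.5 CPM under hypoxia and 451 ± 16.1 CPM under normoxia (SD, n = 3 each). dre-miR-23a-3p_R-1, a member of a cluster active in blood vessels and muscle, measured 4709 ± 390 CPM and 4146 ± 76.7 CPM.

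The main entries of an erythrocyte and an endothelial marker, dre-miR-451 and gmo-miR-126-3p_R-1, were higher in the same libraries, but not every entry of their lists was. The list of erythrocyte miRNAs, miR-451, miR-144 and miR-486, held 8 entries, of which 7 were tested, 2 rose by the edgeR fit and 0 fell, where 2.7% of all entries were called. Both calls, dre-miR-451 and gmo-miR-144-3p, had a Benjamini-Hochberg adjusted edgeR p of 0.0494, just under the cutoff of 0.05. They come from 1 transcript, so they are not independent of each other. The fold was above 1 in 5 of the 7, against 232 of all 519 tested. The median log2 fold change was 0.35, against -0.04 over all entries tested. All 3 hypoxia libraries lay above normoxia in 2 of the 7 and below in 1, where 11.8% and 14.3% of all entries did so. The only miR-486 entry tested, bta-miR-486, averaged 10.4 CPM over the hypoxia libraries against 21.2 CPM over the normoxia libraries (-0.98 ± 0.34 on the log2 scale, SE). dre-mir-451-p3 and aca-miR-451-3p_L+2R+1 had log2 fold changes of 0.02 ± 0.17 and -0.02 ± 0.33 (SE). The summed level of the 8 entries ranged from 7203 to 9174 CPM in hypoxia and from 4842 to 5917 CPM in normoxia, and none of the 8 was at 0 in all libraries. gmo-miR-144-3p, which comes from the transcript that also yields miR-451, ordered the libraries differently. It stood at 939, 841 and 484 CPM in hypoxia replicates 1, 2 and 3, and at 300.4 to 393 CPM in normoxia.

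The endothelial marker miR-126 had 5 entries, 4 tested and 0 called by the edgeR fit, against 2.7% of all entries. Of the 4, 1 had an unadjusted edgeR p under 0.05, against 18.5% of all entries, and DESeq2 called 1, against 8.23%. The edgeR fold was above 1 in 3 of the 4, against 232 of all 519 tested. The median log2 fold change was 0.33, against -0.04 over all entries tested, and oni-miR-126 stood at -0.03 ± 0.20 (SE). Summed over its 5 entries, miR-126 stood at 15768 to 17733 CPM in hypoxia and 11829 to 13516 CPM in normoxia. gmo-miR-126-3p_R-1, its main strand, was lowest of all in normoxia replicate 1, at 11069 CPM, where miR-2188-5p was highest of its group. The part of these cell types in the level of miR-2188 was not tested. In vesicles of a whole organ, more vesicles from a cell type and more of the miRNA in each vesicle cannot be told apart.

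**Figure D4:**
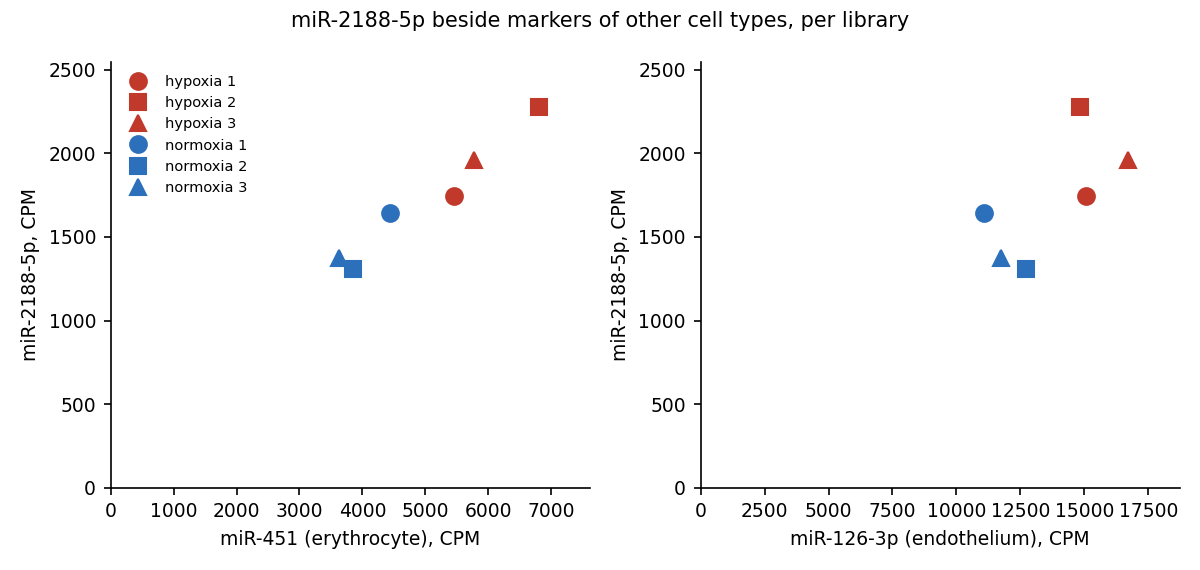
CPM of miR-2188-5p (vertical) against dre-miR-451, an erythrocyte miRNA (left), and gmo-miR-126-3p_R-1, an endothelial miRNA (right), with 1 point a library, hypoxia in red and normoxia in blue. Both markers are higher in the hypoxia libraries. dre-miR-451 also orders the libraries within the groups almost as miR-2188-5p does, but it had the highest correlation of all entries compared over these same libraries. Its likeness is therefore no test. gmo-miR-126-3p_R-1 does not share that order and was not picked by correlation.

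The summed levels of leukocyte and stromal markers overlapped between the groups. Leukocyte miRNAs (miR-142, miR-150 and miR-223) summed to 3549 to 3919 CPM in hypoxia and 3449 to 4151 CPM in normoxia. Those of smooth muscle and stroma (miR-143, miR-145, miR-199 and miR-214) summed to 83679 to 85807 CPM and 82053 to 86893 CPM. In both lists 0 entries were called by the edgeR fit, of 5 and 14 tested, against 2.7% of all entries. At an unadjusted edgeR p under 0.05 there were 0 leukocyte and 1 stromal entries, against 18.5% of all entries. DESeq2 also called 0 and 1, against 8.23%. The fold was above 1 in 1 of the 5 leukocyte entries and in 7 of the 14 stromal entries, against 232 of all 519 tested. The median log2 fold changes were -0.24 and -0.06, against -0.04 over all entries tested. All 3 hypoxia libraries lay below normoxia in 2 leukocyte entries and 1 stromal entry and above in 0 of either, against 14.3% and 11.8% of all entries. For the hepatocyte marker miR-122, 0 of 4 tested entries were called by the edgeR fit, against 2.7% of all entries. Its fold was above 1 in 1 of the 4, against 232 of all 519 tested. The median log2 fold change of miR-122 was -0.14, against -0.04 over all entries tested.

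Single entries of other miRNAs linked to blood vessel growth did not share one direction, but their summed level was higher in hypoxia. The 44 entries of the list summed to 49126.5 to 54486 CPM in hypoxia and 44986 to 46007 CPM in normoxia, so the groups did not overlap. The most abundant of them, gmo-miR-126-3p_R-1, is part of this sum. The list held miR-126, miR-221, miR-222, miR-23, miR-24, miR-27, miR-130, miR-92 and miR-296, with 37 entries tested. The edgeR fit called 0 of the 37, against 2.7% of all entries. An unadjusted p under 0.05 was reached by 4, against 18.5% of all entries, and DESeq2 called 1, against 8.23%. The fold was above 1 in 20 of the 37, against 232 of all 519 tested, and the median log2 fold change was 0.03, against -0.04 over all entries. All 3 hypoxia libraries lay above normoxia in 7 of them and below in 2, against 11.8% and 14.3% of all entries. Of its 4 most abundant entries, gmo-miR-126-3p_R-1 had a log2 fold change of 0.39 ± 0.10, dre-miR-92a-3p one of 0.19 ± 0.16, dre-miR-23b-3p_R-2 one of 0.11 ± 0.10 and oni-miR-27b one of -0.04 ± 0.12 (SE).

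Other miRNAs numbered first in zebrafish, with no human miRNA of the same number, had a lower summed level in hypoxia. Their entries summed to 7705 to 8488 CPM in hypoxia and 9568 to 9751 CPM in normoxia, so the groups did not overlap. The list held 17 entries, of which 13 were tested and 0 were called by the edgeR fit, against 2.7% of all entries. The fold was above 1 in 5 of the 13, against 232 of all 519 tested. The median log2 fold change was -0.12, against -0.04 over all entries tested. Of the 13, 7 had an unadjusted p under 0.05, against 18.5% of all entries, and DESeq2 called 4, against 8.23%. All 3 hypoxia libraries lay above normoxia in 3 of the 13 and below in 5, against 11.8% and 14.3% of all entries. Of its most abundant entries, dre-miR-462_R+1 had a log2 fold change of -0.31 ± 0.10 and oni-miR-722 one of -0.51 ± 0.15. ssa-miR-731-3p_2ss10TC22AC and dre-miR-731_R-1_1ss23CT measured 0.22 ± 0.16 and 0.20 ± 0.15 (SE). miR-2188-5p, at 1442 CPM in normoxia, was less abundant than the first 2 of these, at 4765 and 3458 CPM, and more abundant than the other tested entries of the list.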

How the data were processed

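Vesicle small RNA was ligated to adapters, reverse transcribed, amplified, selected by size and sequenced, with reads cut to single ends, per the labels' protocols. The authors deposited 1 table of estimated counts per miRNA name and sequence. Which aligner, caller, build and filters they used is not given in the sources here.

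Listings of 1 sequence were summed, and sequences of 1 precursor with identical values in all libraries were joined, which gave 841 entries, with 89.0% of nonzero values whole. This handling affected neither miR-2188 entry. Estimated counts were rounded, filtered with filterByExpr, scaled with TMM and fitted with edgeR 4.0.16 (quasi-likelihood, hypoxia against normoxia, no block). p-values were adjusted by Benjamini-Hochberg over 519 entries, which held 99.98% of counts. SEs were derived from the F statistic as the size of the log2 fold change over its square root. Log2 CPM for correlations used a pseudocount of 1. Strand pairing used RNAduplex (ViennaRNA 2.7.2). DESeq2 1.42.0 was an alternative, run on the same filtered entries. The fit was tested on simulated data. Library totals ranged from 2038301 to 8497217 counts, and 3 counts correspond to 0.353 to 1.47 CPM.

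The family, the lists and the tests were chosen with earlier results of these data known. The design had named arm sums, which here equal the single entries. The rule for named miRNAs took every miR-2188 entry, the 5 entries most correlated with each arm and up to 4 per list by abundance. Cell type markers were given as list sums, with miR-144-3p, miR-126-3p, miR-486, oni-miR-126, the minor miR-451 entries and the names mir-199 and mir-199a singled out after their values were seen. So was PC-5p-1446_18052, found by its sequence. miR-30e was named as the neighbour in rank.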

Additional observations from a re-analysis of the deposited data

How the results depend on the processing

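Both arms kept a log2 fold change above 0 in all 14 alternatives. The 3p arm was called in none of them. The 5p arm was called in 2 of 14, with DESeq2 at 0.46 and with no filter on low counts at 0.45. With 1 library left out at a time, neither arm was called, and the 5p arm ranged from 0.37 to 0.62 and the 3p arm from 0.38 to 0.67. The SD of the log2 ratio of 5p to 3p counts between replicates was 0.05 in hypoxia and 0.16 in normoxia. The difference in arm balance between hypoxia and normoxia, -0.02 as reported, ranged from -0.09 to 0.06 over its 11 alternatives. It was -0.08 with the longer 5p form joined to the 5p arm, an alternative chosen after seeing the data. The number of called entries, 14 as reported, was 5 with total counts only, 41 with DESeq2, 59 with no filter, 3 with GC and length offsets, 6 with each sequence at its listed value and 4 with the longer 5p form joined. With 1 library left out it ranged from 0 without normoxia replicate 2 to 52 without hypoxia replicate 2, and the cause was not tested. With the replicate number as a block it was 7, and the arms stood at 0.47 and 0.50, uncalled. Same-numbered libraries did not deviate together (r of -0.13, -0.06 and -0.05 across entries), so the numbers are not taken to pair the libraries. Taking only the most abundant entry of each arm changed nothing, since each arm has 1 entry. Depth limits the 3p arm most, with 149 counts in hypoxia replicate 1.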
